A study of Bos taurus with 14 samples.

Results

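bta-miR-150 and bta-miR-342 were read out here as the lymphocyte miRNAs of peripheral white blood cells (PWBC), with bta-miR-223 as a myeloid reference. They were chosen by name and not by their values, although earlier results of these data were known. They are 2 of the 1030 mature miRNA names in the count table and 2 of the 341 miRNAs in the table of library-scaled counts (CPM), and each has a single entry. PWBC were collected at weaning from Angus-Simmental crossbred heifers, with a separate small RNA library for each heifer. The fertile group (FH, n = 7) later became pregnant to artificial insemination, and the subfertile group (SFH, n = 7) was not pregnant after insemination and then exposure to bulls. The comparison asks whether the miRNAs at weaning differ by later pregnancy outcome. The libraries held 1754971 to 5468341 counts on mature miRNAs, with a median of 3319368 in FH and 2663375 in SFH.

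miR-150 accumulates in mature B and T lymphocytes, is kept low in their precursors, falls when the cells are activated, and represses the transcription factor MYB. miR-342 is made from an intron of *EVL*, an actin regulator of the Ena/VASP family, and is abundant in lymphocytes, although other leukocytes also contain it. miR-223 increases during granulocyte differentiation and is abundant in neutrophils and monocytes. By RefSeq gene models on the newer assembly ARS-UCD2.0, the precursor gene of bta-miR-342 overlaps *EVL*, that of bta-miR-223 overlaps *VSIG4*, and that of bta-miR-150 overlaps no gene. PWBC are a mixture, so that fewer cells of a type and less of the miRNA per cell cannot be told apart.

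bta-miR-150 was the third most abundant miRNA of the PWBC, after bta-miR-26a and bta-let-7a-5p, and its level varied widely between heifers of the same group. The FH mean was 65601 ± 15939 CPM and the SFH mean 65247 ± 21034 CPM (± SD over 7 heifers). In FH it was lowest in heifer 27 (39680 CPM), had a median of 68858 CPM and was highest in heifer 20 (89094 CPM). In SFH it was lowest in heifer 21 (34305 CPM), had a median of 65181 CPM and was highest in heifer 30 (92320 CPM). The groups overlapped over nearly their whole range, and SFH heifers were both the lowest and the highest of the 14. It took 3.43% to 9.23% of all counts of a heifer and ranked between 2 and 10 of the 341 miRNAs. Levels of different miRNAs are compared in CPM without a length term, since mature miRNAs are of similar length.

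The log2 fold change of bta-miR-150 (SFH relative to FH) was −0.08 (standard error 0.21, 95% interval −0.52 to 0.37) and the p-value from edgeR's quasi-likelihood test, adjusted by Benjamini-Hochberg for all 341 miRNAs, was 0.977. The interval corresponds to 0.698 to 1.29 times the FH level. After scaling by the trimmed mean of M-values (TMM), the mean log2 levels gave p = 0.662 by exact permutation (two-sided). The sign rested on single heifers, with values of 0.0043 without FH heifer 20, 0.0024 without SFH heifer 21 and 0.021 without SFH heifer 32.

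bta-miR-342 was less abundant than bta-miR-150 and varied less between heifers. The FH mean was 13120 ± 2065 CPM and the SFH mean 12452 ± 2405 CPM (± SD over 7 heifers), which placed it 18th among the 341 miRNAs by mean CPM. In FH it ranged from 9759 CPM in heifer 27 to 15425 CPM in heifer 20, with a median of 13571 CPM. In SFH it ranged from 8470 CPM in heifer 21 to 15731 CPM in heifer 30, with a median of 12454 CPM. The lowest and highest heifer of each group were therefore those of bta-miR-150 on the CPM scale. The log2 fold change was −0.14 (standard error 0.16, 95% interval −0.48 to 0.19), and edgeR's quasi-likelihood test gave an adjusted p-value of 0.947. After TMM scaling, 5 of the 7 SFH heifers lay below the FH median, and exact permutation (two-sided) gave p = 0.330.

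**Figure D1:**
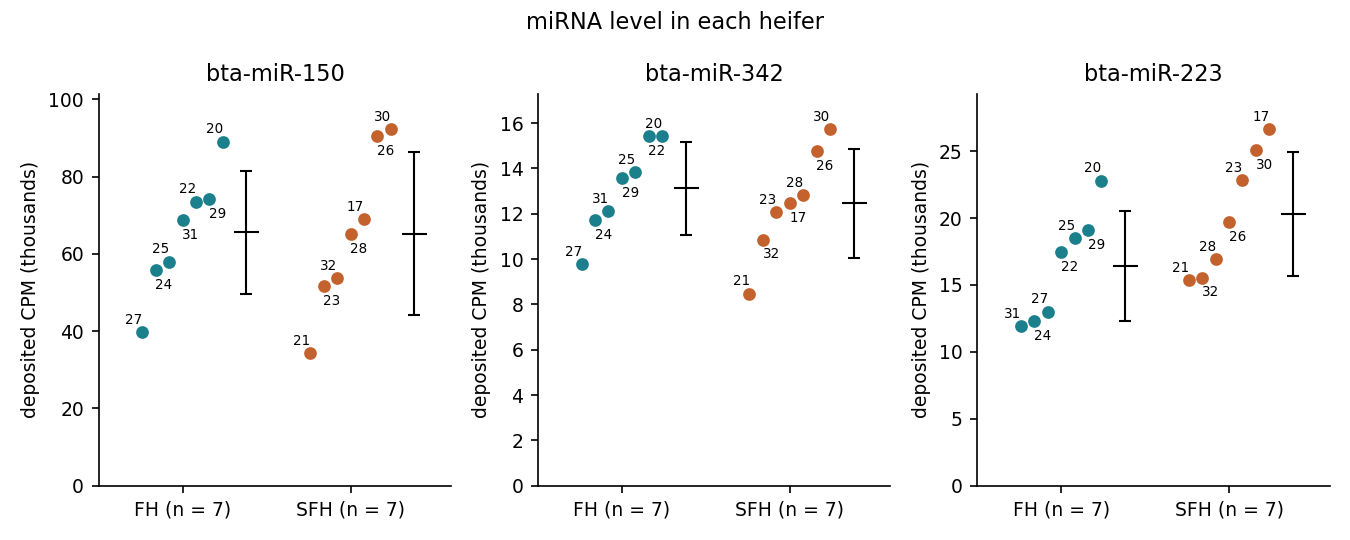
Level of bta-miR-150, bta-miR-342 and bta-miR-223 in each heifer, in units of 1000 deposited CPM. Each point is 1 heifer with its number, ordered by level within its group, and the bars are the group mean ± SD (n = 7 per group). Heifers 27 and 21 are the lowest of their groups for both bta-miR-150 and bta-miR-342, and the groups overlap in all 3 panels.

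bta-miR-223 was higher in SFH by value, but within the spread between heifers. The FH mean was 16435 ± 4122 CPM and the SFH mean 20291 ± 4630 CPM (± SD over 7 heifers). The FH heifers spread from 11921 CPM in heifer 31 to 22780 CPM in heifer 20, with a median of 17457 CPM. The SFH heifers spread from 15335 CPM in heifer 21 to 26640 CPM in heifer 17, with a median of 19699 CPM. FH heifers 24, 27 and 31 were below every SFH heifer, and the other 4 lay inside the SFH range. The log2 fold change was 0.22 (standard error 0.19, 95% interval −0.17 to 0.62), with an adjusted p-value of 0.947 in edgeR's quasi-likelihood test and an exact two-sided permutation p of 0.245 (n = 7 per group).

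Neither member nor the reference passed the thresholds, which were an unadjusted value of up to 0.05 in edgeR's test together with a log2 fold change of 0.5 or more in either direction. Of all 341 miRNAs tested, 13 passed them (3.81%), 5 higher and 8 lower in SFH. The split was 7 higher and 7 lower with library totals as the only scaling, 15 and 8 in limma-voom, 81 and 45 without the CPM filter, and 4 and 16 with every precursor entry. In edgeR 20 miRNAs had an unadjusted p ≤ 0.05 and 0 an adjusted one (0%), whereas DESeq2 gave 2 by adjusted p. The median log2 fold change over the 341 miRNAs was 0.06. Ordered by unadjusted p-value, bta-miR-342 stood at place 131 and bta-miR-150 at place 246.

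The spread between heifers was far larger than counting error. With 91328 to 365359 counts of bta-miR-150 in a library, counting alone gives an error of 0.331% to 0.165%, whereas the coefficient of variation between heifers was 24.3% in FH and 32.2% in SFH. For bta-miR-342, with 19885 to 65473 counts, counting gives at most 0.709%, and the coefficient of variation was 15.7% in FH and 19.3% in SFH. These errors cover counting only, since PCR copies were not removed. On the log2 scale after TMM, with the group means removed, the SD between heifers was 0.46 for bta-miR-150, 0.38 for bta-miR-223 and 0.29 for bta-miR-342. Among the 72 miRNAs with a mean of at least 1000 CPM the median of this SD was 0.38. Of these, 53 varied less than bta-miR-150, 36 varied less than bta-miR-223 and 19 varied less than bta-miR-342.

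bta-miR-150 and bta-miR-342 rose and fell together from heifer to heifer. Across the 14 heifers, Pearson's r of their log2 TMM-normalized levels was 0.93 (permutation p = 2e-05, adjusted 0.00048 over 24 relations) and Spearman's rho was 0.92 (permutation p = 1e-05, the smallest that 100000 resamples can give, adjusted 0.00024). Without heifers 21 and 27, the farthest from the median of bta-miR-150, r was 0.87. Within FH, r was 0.88 (exact permutation p = 0.0079, adjusted 0.0635) and rho was 0.96 (exact permutation p = 0.0028, adjusted 0.0333). Within SFH, r was 0.97 (exact permutation p = 0.00099, adjusted 0.0119) and rho was 0.93 (exact permutation p = 0.0067, adjusted 0.0540). Without the 2 farthest heifers of each group, r was 0.66 in FH (exact permutation p = 0.258) and 0.91 in SFH (exact permutation p = 0.0667), so that the relation within FH rested in part on heifers 27 and 29. A difference of 1 in log2 bta-miR-150 went with a difference of 0.60 in log2 bta-miR-342. Both values of a heifer come from 1 library and share its scaling.

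Each member also had a positive r with bta-miR-223, of smaller value across the 14 heifers, and the relations were not tested against each other. For bta-miR-150, r was 0.56 (permutation p = 0.0402, adjusted 0.161) and rho was 0.56 (permutation p = 0.0395, adjusted 0.158) across the 14 heifers, with r = 0.70 within FH (exact permutation p = 0.0841) and 0.61 within SFH (exact permutation p = 0.140). Without heifers 21 and 27 the pooled r was 0.50 (permutation p = 0.102). For bta-miR-342, r was 0.59 (permutation p = 0.0268, adjusted 0.129) and rho was 0.66 (permutation p = 0.0121, adjusted 0.0726), with r = 0.88 within FH (exact permutation p = 0.0194, adjusted 0.117) and 0.65 within SFH (exact permutation p = 0.118). Without heifers 21 and 29 the pooled r was 0.57 (permutation p = 0.0544). Within FH the r of bta-miR-342 was thus as high with bta-miR-223 as with bta-miR-150 (0.88 for both), and without heifers 24 and 27 it was 0.94 with bta-miR-223 (exact permutation p = 0.0333). Within SFH, without heifers 21 and 30, it was 0.31 (exact permutation p = 0.650). None of these relations to bta-miR-223 passed the adjustment over the 24 relations. The total count of the library showed little relation to any of the 3 miRNAs across the 14 heifers, with r of 0.01 for bta-miR-150 (permutation p = 0.967), 0.17 for bta-miR-342 (permutation p = 0.549) and 0.12 for bta-miR-223 (permutation p = 0.672).

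**Figure D2:**
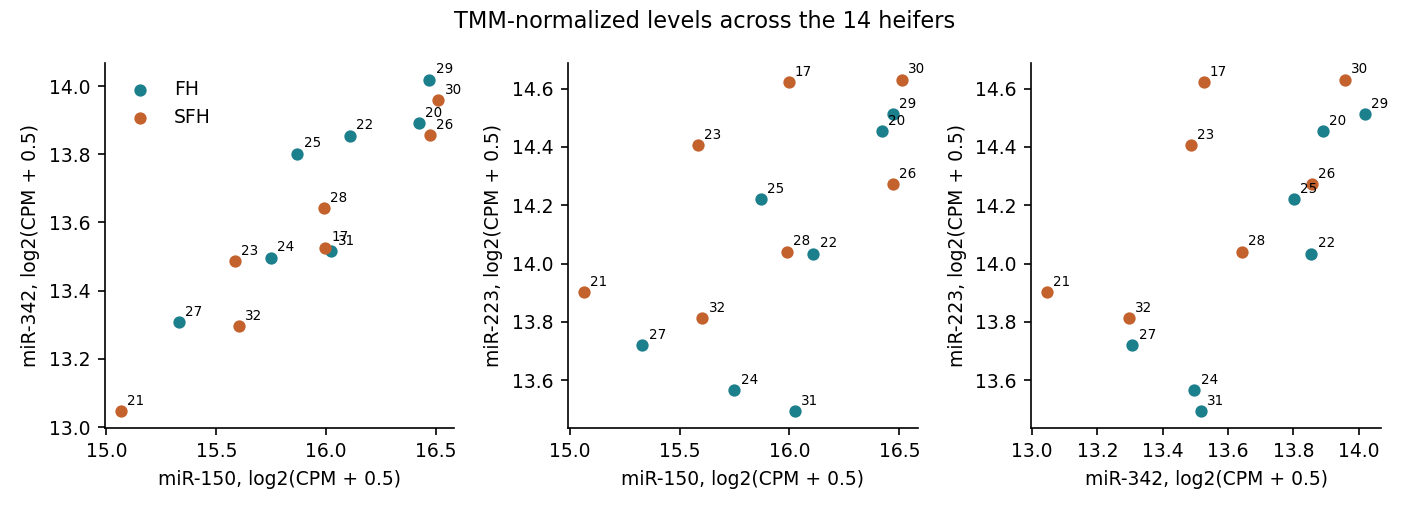
Levels of the 3 miRNAs against each other, as log2(TMM-normalized CPM + 0.5) on both axes, with 1 numbered point per heifer. bta-miR-150 and bta-miR-342 lie along a line with heifers of both groups mixed (r = 0.93), whereas against bta-miR-223 the points scatter more (r = 0.56 and 0.59), with SFH heifers 17 and 23 high in bta-miR-223 for their level of the members.

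A ratio of read counts within a library does not depend on the scaling between libraries, and 3 such ratios were compared. bta-miR-342 was lower relative to bta-miR-223 in SFH than in FH. The ratio ran from 0.677 in heifer 20 to 1.02 in heifer 31 among FH heifers, with a median of 0.751. In SFH it ran from 0.467 in heifer 17 to 0.759 in heifer 28, with a median of 0.627. SFH heifers 17, 21, 23 and 30 were below every FH heifer, FH heifers 22, 24 and 31 were above every SFH heifer, and the others overlapped. The difference in mean log2 ratio (SFH minus FH) was −0.40, from −0.70 ± 0.27 in SFH and −0.30 ± 0.23 in FH (SD, n = 7 per group), which is a ratio 0.760 times that of FH (exact two-sided permutation test, p = 0.0140). After TMM scaling, mean log2 bta-miR-342 differed by −0.15 and bta-miR-223 by 0.24, neither of which passed a test alone. Unlike the ratio, this split depends on the scaling. The log2 fold changes in edgeR were −0.08 and 0.30 with library totals only, and −0.23 and 0.14 with every precursor entry.

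To see how common such a result is, every other tested miRNA was set against bta-miR-223 in the same way, a comparison chosen after the ratios of the members were seen. Of the 340 miRNAs, 28 had an unadjusted exact permutation p-value of at most 0.05 (8.24%), 24 of them with a lower ratio in SFH (7.06%). The median difference over the 340 was −0.11, and 198 of them had a lower ratio in SFH at any p-value. All of them share bta-miR-223 as denominator, which was higher in SFH by value. bta-miR-342 stood at place 9 by p-value, and its Benjamini-Hochberg adjusted exact permutation p-value over the 340 was 0.384. The smallest adjusted value of any miRNA was 0.0991, and 0 of the 340 passed at 0.05. The difference in bta-miR-342 to bta-miR-223 thus passed 0.05 in its own exact permutation test, with overlapping groups. It did not hold after adjustment over the 340 miRNAs.

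For bta-miR-150 relative to bta-miR-223, the ratio in FH was 3.05 in heifer 27, 3.91 at the median and 5.78 in heifer 31. In SFH it was 2.24 in heifer 21, 3.46 at the median and 4.59 in heifer 26. SFH heifers 17, 21 and 23 were again below every FH heifer, while the other 4 SFH heifers lay inside the FH range. The difference in mean log2 ratio was −0.35 (1.65 ± 0.41 in SFH and 1.996 ± 0.32 in FH, SD, n = 7 per group), with an exact two-sided permutation p of 0.1002 and an adjusted value of 0.668 over the 340 miRNAs. Without SFH heifer 26 it was −0.44 (exact permutation p = 0.0408). Within FH this ratio was lower in libraries with a higher total count (rho = −0.79, exact permutation p = 0.0480, adjusted 0.165). This was not seen in SFH (rho = 0, exact permutation p = 1). Pearson's r within FH was −0.54 (exact permutation p = 0.216, adjusted 0.518). Without heifers 27 and 31, the farthest in this ratio, it was −0.82 (exact permutation p = 0.0083, unadjusted). That p-value is the smallest that the few FH heifers left can give. The part of depth in the group difference of this ratio was not tested. Across the 14 heifers, r with the log2 total count was −0.11 for this ratio (permutation p = 0.716) and 0.0074 for the ratio of bta-miR-342 to bta-miR-223 (permutation p = 0.980).

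bta-miR-150 relative to bta-miR-342 did not separate the groups. The ratio was 4.07 to 5.78 in FH (median 4.77) and 4.05 to 6.13 in SFH (median 5.08). Its mean log2 differed by 0.05 (p = 0.690 by exact permutation), and it varied only 1.51-fold over all 14 heifers, compared to 2.58-fold for bta-miR-150 to bta-miR-223 and 2.17-fold for bta-miR-342 to bta-miR-223.

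**Figure D3:**
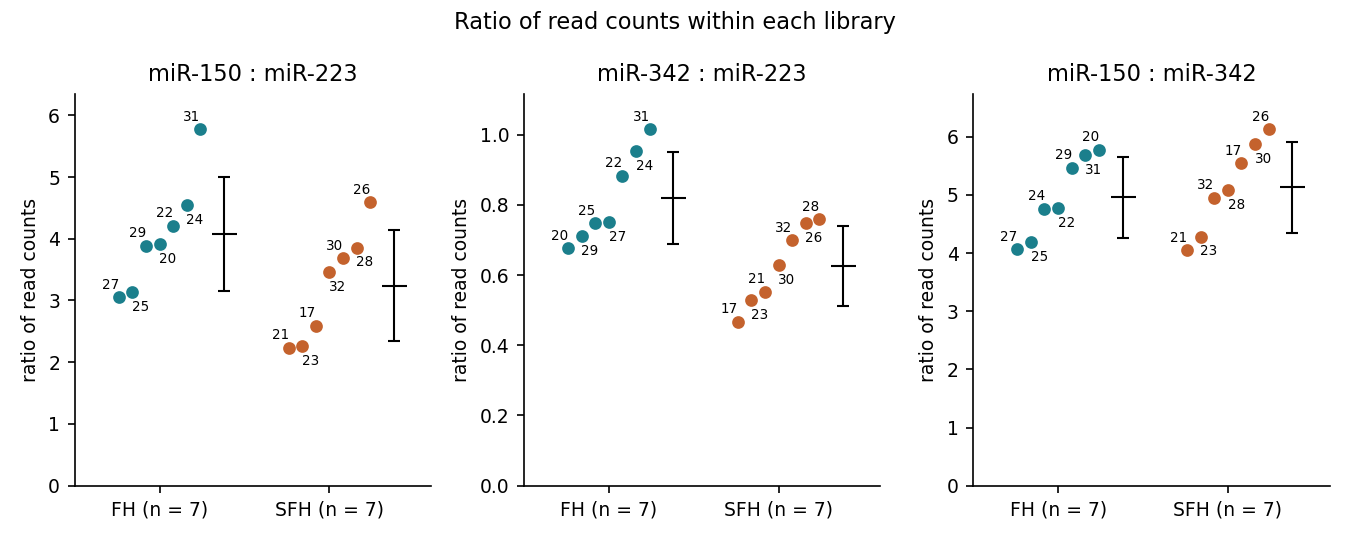
Ratio of read counts within each library for bta-miR-150 to bta-miR-223, bta-miR-342 to bta-miR-223 and bta-miR-150 to bta-miR-342, with 1 numbered point per heifer and the group mean ± SD (n = 7 per group). SFH heifers 17, 21 and 23 lie below every FH heifer in the first and second panel, and the FH range lies inside the SFH range in the third panel.

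When miRNAs with a mean of at least 10 CPM were ordered by how closely they followed a member across the 14 heifers (Pearson's r of log2 TMM-normalized levels, given as a description), each member came first of 266 for the other. First place was kept with the group means removed (r = 0.94) and with the deposited CPM (r = 0.93). bta-miR-223 stood at place 10 for bta-miR-150 and 9 for bta-miR-342, and with the group means removed at place 6 (r = 0.64) and 3 (r = 0.75). Next for both came bta-miR-362-5p, which belongs to an X-linked miRNA cluster within *CLCN5* in mammals, with r = 0.80 to bta-miR-150 and 0.81 to bta-miR-342. bta-miR-374b followed, with r = 0.69 to each. For bta-miR-150 the list went on with bta-miR-1388-3p (r = 0.67) and bta-miR-16a (r = 0.61), a member of the miR-15/16 family that represses BCL2. For bta-miR-342 it went on with bta-let-7a-5p (r = 0.63) and bta-let-7e (r = 0.60). bta-miR-362-5p and bta-miR-374b were also among the 5 miRNAs most like bta-miR-223 (r = 0.82 and 0.67), so that they did not single out the members.

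At the opposite end, both members had the same 3 miRNAs. bta-miR-423-3p had r = −0.85 to bta-miR-150 and −0.84 to bta-miR-342. bta-miR-425-5p, which is co-transcribed with miR-191, had r = −0.78 and −0.89. bta-miR-10a, which lies in a HOX gene cluster, had r = −0.78 and −0.79. None of the 3 was among the 3 lowest for bta-miR-223. The other arm of miR-423, bta-miR-423-5p, had r = −0.29 to bta-miR-150 and −0.14 to bta-miR-342. For bta-miR-191 the values were 0.18 and 0.37, so that it did not share the negative r of bta-miR-425-5p. The median r over the 266 miRNAs was −0.09 for bta-miR-150 and −0.07 for bta-miR-342. With the deposited CPM in place of TMM the values were weaker, at −0.76 and −0.76 for bta-miR-423-3p, −0.67 and −0.77 for bta-miR-425-5p and −0.68 and −0.67 for bta-miR-10a. All levels are shares of 1 library, so that a higher share of an abundant miRNA lowers the shares of the others. The part of this in the negative r values was not tested.

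**Figure D4:**
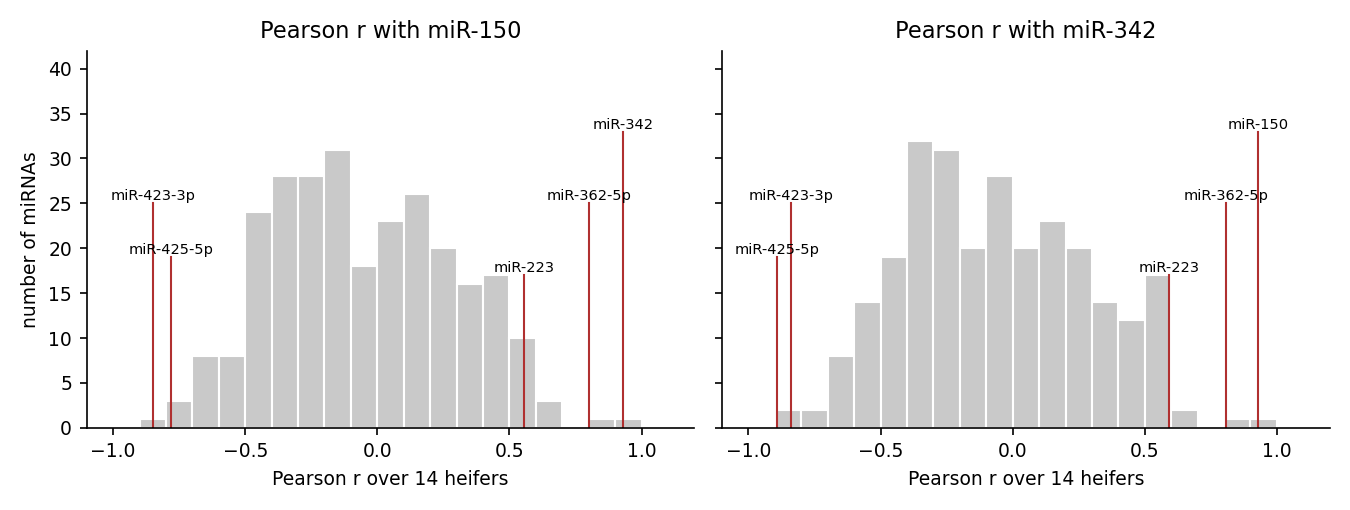
Number of miRNAs (vertical axis) by Pearson's r with bta-miR-150 (left) or bta-miR-342 (right) over the 14 heifers (horizontal axis, bins of 0.1), for 266 miRNAs with a mean of at least 10 CPM. The red lines mark named miRNAs, and the other member stands apart at r = 0.93 while bta-miR-223 lies at 0.56 and 0.59.

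The files hold no count of cells, so that the lymphocyte label was compared with other miRNAs that are known from lymphocytes. miR-155 is induced when B and T cells are activated, miR-146a restrains NF-κB signalling, and the miR-181 family acts in lymphocyte development. Of these 6 miRNAs, 0 passed the thresholds in either direction, compared to 13 of all 341 (3.81%). Their median log2 fold change was 0.32, compared to 0.06 over all 341. The median of bta-miR-155 was 8524 CPM in FH and 7384 CPM in SFH, and its log2 fold change −0.25 (SE 0.15). For bta-miR-181a the medians were 14109 CPM and 21955 CPM, and the log2 fold change 0.33 (SE 0.19). For bta-miR-181b it was 0.32 (SE 0.21) and for bta-miR-146a 0.17 (SE 0.28). The scarcer bta-miR-181c (mean 36.0 CPM) had 0.62 (SE 0.82) and bta-miR-181d (mean 59.9 CPM) had 0.56 (SE 0.59).

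The lymphocyte miRNAs did not follow the members as a set. bta-miR-155 was the nearest, with r = 0.51 to bta-miR-150 and 0.54 to bta-miR-342, and 0.01 to bta-miR-223. For bta-miR-181a the values were 0.15, −0.07 and 0.11, and for bta-miR-146a they were −0.18, −0.31 and −0.43, in the same order. They were 0.25, 0.16 and 0.43 for bta-miR-181b, −0.22, −0.32 and −0.28 for bta-miR-181c, and −0.25, −0.33 and −0.14 for bta-miR-181d. Relative to bta-miR-223, bta-miR-155 was lower in SFH, with a difference in mean log2 ratio of −0.49 (exact two-sided permutation p = 0.0484, adjusted 0.587 over the 340 miRNAs), whereas bta-miR-181a had 0.09 (exact two-sided permutation p = 0.781). It was 0.03 for bta-miR-146a and 0.01 for bta-miR-181b (exact two-sided permutation p = 0.944 and 0.959). For bta-miR-181c it was 1.14 and for bta-miR-181d 0.90 (exact two-sided permutation p = 0.455 and 0.506).

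**Figure D5:**
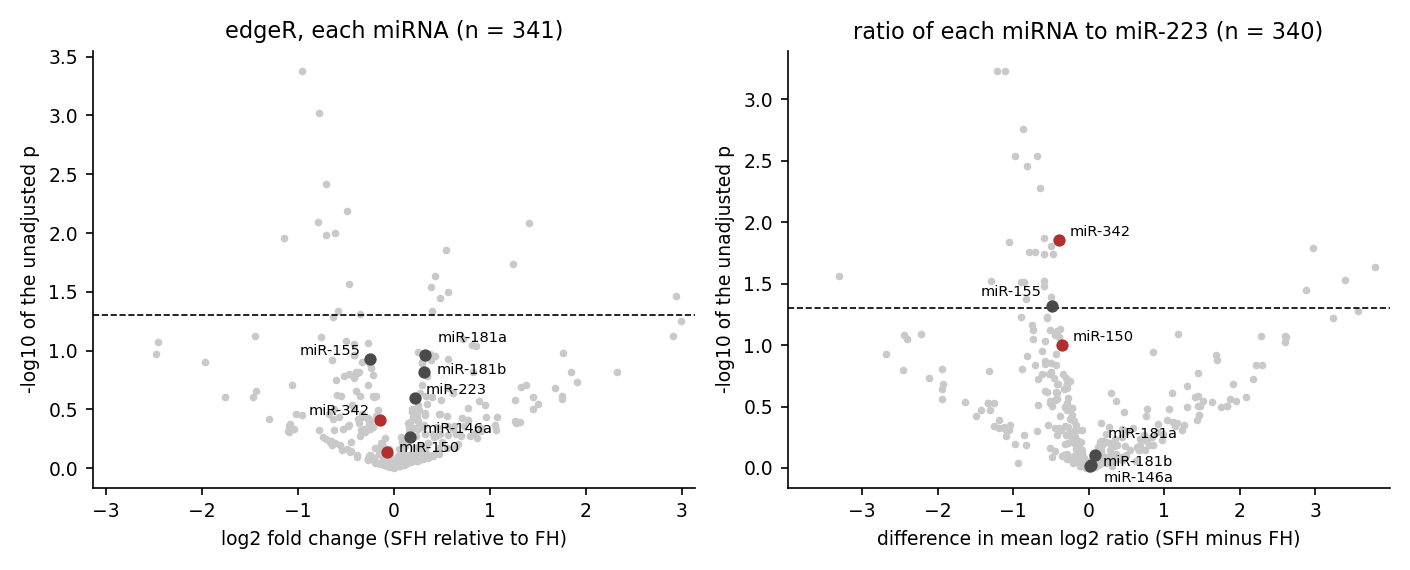
The members (red), bta-miR-223 and 4 other lymphocyte miRNAs (dark) among all tested miRNAs (grey). Left, log2 fold change (SFH relative to FH) against −log10 of edgeR's unadjusted p-value; right, the difference in mean log2 ratio to bta-miR-223 against −log10 of the unadjusted exact permutation p-value, with the dashed line at 0.05 in both. bta-miR-342 lies above the line on the right (p = 0.0140) and below it on the left, and bta-miR-150 lies below it in both.

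Markers of the other cells of blood were compared between the groups by their summed level. Counts past the thresholds are to be read beside the 13 of all 341 miRNAs (3.81%). The myeloid list (10 mature miRNAs including bta-miR-223, 0 past the thresholds) summed to 45599 to 66026 CPM in FH and 51925 to 65902 CPM in SFH, with a median log2 fold change of 0.15. Of the 10, 7 had a log2 fold change above 0. It was 0.08 (SE 0.13) for bta-miR-23a, 0.40 (SE 0.19) for bta-miR-24-3p and 0.32 (SE 0.21) for bta-miR-22-3p. Among scarce markers it was 1.76 (SE 1.04) for bta-miR-24, 0.74 (SE 0.94) for bta-miR-424-3p and 0.03 (SE 0.63) for bta-miR-27a-5p. It was −0.27 (SE 0.20) for bta-miR-27a-3p, −0.12 (SE 0.27) for bta-miR-22-5p and −1.76 (SE 1.48) for bta-miR-424-5p. The last had medians of 5.42 CPM in FH and 1.502 CPM in SFH. In edgeR's test bta-miR-24-3p had an unadjusted p of 0.0456 and an adjusted p of 0.828. The abundant myeloid markers followed bta-miR-223 little across heifers, with r of 0.20 for bta-miR-23a, 0.06 for bta-miR-24-3p, −0.09 for bta-miR-22-3p and −0.38 for bta-miR-27a-3p. With the summed myeloid list in place of bta-miR-223, the log2 ratio of bta-miR-342 differed by −0.31 (p = 0.0513 by exact permutation). bta-miR-142-5p, a miRNA of all leukocytes, had means of 10389 ± 3636 CPM (FH) and 14141 ± 4999 CPM (SFH, ± SD). Its own log2 fold change was 0.39 (SE 0.24). With it as denominator, the log2 ratio of bta-miR-342 differed by −0.52 (p = 0.0291 by exact permutation). The p-values with these other denominators are unadjusted, since the other miRNAs were not set against them. For bta-miR-150 the corresponding differences were −0.27 against the summed myeloid list (p = 0.260 by exact permutation) and −0.48 against bta-miR-142-5p (p = 0.0594 by exact permutation). The other arm, bta-miR-142-3p, had a log2 fold change of −0.15, and 0 of the 2 arms passed the thresholds. The erythroid list summed to 1574 to 3713 CPM in FH and 1463 to 9236 CPM in SFH, with 0 of its 2 tested miRNAs past the thresholds and bta-miR-144 at 0 counts in every heifer. The log2 fold change was 0.72 (SE 0.39) for bta-miR-451 and −0.05 (SE 0.35) for bta-miR-486. bta-miR-451 had r = 0.47 to bta-miR-150, 0.34 to bta-miR-342 and 0.42 to bta-miR-223. For bta-miR-486 these values were 0.16, 0.12 and 0.22. Platelet and endothelial markers (0 of 3 tested past the thresholds) summed to at most 123 CPM, muscle markers (0 of 1) to at most 275 CPM, and the liver miRNA bta-miR-122 reached at most 4.65 CPM and was not tested. The part of these cells in the ratios was not tested.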

How the data were processed

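Small RNA from PWBC of 14 heifers was sequenced as 1 library per heifer. The authors trimmed adapters and end bases, ran miRDeep2 against the cattle assembly ARS-UCD1.2 and miRBase entries, and deposited raw counts per mature miRNA and precursor. The authors also deposited CPM for 341 miRNAs, those reaching 1 CPM in 7 or more heifers, which equal the counts divided by their total over these miRNAs. Per the labels, edgeR 3.28.1 and DESeq2 1.26.0 were among the authors' tools. Where a name had several entries, the entry with the highest total was kept.

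Counts were scaled by TMM and tested in edgeR 4.0.16 (R 4.3.3) by the quasi-likelihood F-test over the 341 miRNAs, SFH relative to FH, without covariates, with Benjamini-Hochberg adjustment. Standard errors (SE) are the log2 fold change over the root of F. Levels for permutation tests and correlations were log2(TMM-normalized CPM + 0.5). Permutation tests were two-sided, exact within groups of 7 and with 100000 resamples for correlations of 14 heifers. The 24 relations are the pairs among the 3 miRNAs, each of the 3 with the log2 total count, and both ratios to bta-miR-223 with it, each in all heifers, FH and SFH. The ratios of all miRNAs to bta-miR-223 were added after those of the members were seen. For them, 0.5 was added to each count. DESeq2 1.42.0, limma 3.58.1, other scalings and filters, every precursor entry and each heifer left out were alternatives. Model fits were tested on simulated data. Python 3.11.15, numpy 2.4.6 and pandas 2.3.3 were used.

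The members, the marker lists and the tests were chosen with earlier results of these data known. The miRNAs named are the members, bta-miR-223, both arms of miR-142, the listed markers and, for each member, the 5 miRNAs with the highest and the 3 with the lowest r. bta-miR-423-5p and bta-miR-191 are named beside the lowest, as the other arm and the co-transcribed miRNA. A count of 0 allows up to 3 counts, or 0.549 to 1.71 CPM. Each library is a different heifer, no batch was given in the sources used here, and no 2 heifers had identical counts.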

Additional observations from a re-analysis of the deposited data

How the results depend on the processing

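The log2 fold changes of bta-miR-342 (−0.23 to −0.08) and bta-miR-223 (0.14 to 0.30) kept their direction under the 8 other settings and stayed short of the thresholds, as did that of bta-miR-150 (−0.16 to −0.0078). With 1 heifer left out they were −0.14 to 0.021 for bta-miR-150, −0.18 to −0.06 for bta-miR-342 and 0.17 to 0.34 for bta-miR-223. The sign of bta-miR-150 changed without FH heifer 20 (0.0043), SFH heifer 21 (0.0024) or SFH heifer 32 (0.021). The count of 13 miRNAs past the thresholds became 23 in limma-voom, 20 with every precursor entry and 126 of 614 without the CPM filter, and 11 to 21 with 1 heifer left out, with 21 without FH heifer 24 and 20 without FH heifer 27. The cause was not tested. DESeq2 gave 16, with 2 past 0.05 after adjustment.

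The difference in log2 ratio of bta-miR-342 to bta-miR-223 stayed between −0.44 and −0.33 with 1 heifer left out (exact permutation p 0.0087 to 0.0309), and was −0.31 (exact permutation p = 0.0513) against the summed myeloid list. That of bta-miR-150 to bta-miR-223 was −0.44 to −0.26 with 1 heifer left out (exact permutation p 0.0408 to 0.194), and passed 0.05 without SFH heifer 26 alone. Ranks in place of log2 ratios gave an exact permutation p of 0.0379 for bta-miR-342 and 0.128 for bta-miR-150.

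The r of bta-miR-150 with bta-miR-342 was 0.89 to 0.95 with 1 heifer left out. With bta-miR-223, r was 0.48 to 0.66 for bta-miR-150 and 0.53 to 0.68 for bta-miR-342. Removing the group means gave higher r with bta-miR-223 than the pooled values. It was 0.64 for bta-miR-150 (permutation p = 0.0169, unadjusted) and 0.75 for bta-miR-342 (permutation p = 0.00369, unadjusted). The permutation p of bta-miR-150 with bta-miR-223 rose above 0.05 with the deposited CPM on the log2 scale (r = 0.52, p = 0.0587) and without FH heifers 20, 27 or 29 or SFH heifers 26, 30 or 32, and that of bta-miR-342 without FH heifers 27 or 29 or SFH heifer 30. No paired analysis was possible because each number names a different heifer and no number occurs in both groups.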
